A study of Mus musculus with 4 samples.

Results

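Chromatin accessibility was described at the loci of 10 genes of the bone matrix and its mineralization, namely Col1a1, Col1a2, Sparc, Postn, Alpl, Phex, Bglap, Ibsp, Spp1 and Dmp1. A peak belonged to a gene when it overlapped the span from 10 kb upstream of the gene to 10 kb past its end (GENCODE M21 annotation, build mm10). This gave 72 peaks of the 128055 in the table. Of these, 13 overlapped the kb on either side of a start site of a coding transcript and are called promoter peaks, 31 lay in the gene body and 28 in the flanks, 11 upstream and 17 downstream. Peaks were numbered within a locus from the lowest coordinate.

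The assay was ATAC-seq, which cuts and tags open DNA with the Tn5 transposase, on 50000 mouse mesenchymal stem cells (MSCs) per library. Of the 4 libraries, 2 came from hypoxia (2% O2) and 2 from normoxia (21% O2), all from mice aged 3 to 5 months. The labels call the cells bone-marrow MSCs. By the study's methods they were outgrown from the bone of male wild-type C57BL/6N animals in low oxygen and sorted as CD45-, Ter-119-, Sca-1+ and CD140a+. One sorted population was then split between the oxygen levels for a week, so both groups share the isolation and the first culture. The comparison asks how the move to atmospheric oxygen alters chromatin accessibility. The labels do not say whether libraries of a group came from separate cultures, while the methods speak of independent experiments. If they did not, the p-values measure technical spread alone.

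Osteoblasts secrete a matrix made mostly of type I collagen, a triple helix of chains encoded by Col1a1 and Col1a2. Sparc (osteonectin) and periostin (Postn) bind collagen and help assemble the fibrils. The phosphatase encoded by Alpl removes pyrophosphate, an inhibitor of mineral growth, and Phex is an endopeptidase needed for normal phosphate handling and mineralization. Osteocalcin (Bglap) and the acidic phosphoproteins bone sialoprotein (Ibsp), osteopontin (Spp1) and Dmp1 bind mineral and mark later osteoblasts and osteocytes. ATAC-seq reads how open these loci are and not how much RNA they give. In a bulk population, fewer cells with an open site and a less open site in each cell cannot be told apart.

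Promoter sequences are shown for some of the start sites that lay in peaks. The start sites of Sparc, Ibsp and Spp1 also lay in peaks, and their sequences are not shown. RefSeq (GRCm38.p6) gave at least 1 promoter for 9 of the 10 genes, and Col1a1 had no entry. The stretch before a start site is shown 5′ to 3′ on the gene's strand, outside annotated exons. Capitals mark matches on either strand to the motifs searched. For RUNX factors the letters were ACCACA, held by 12.1% of all 20150 promoters of the same length. Homeodomain proteins were searched as TAATTA, which 4.27% of promoters held. AP-1 was searched as TGANTCA, found in 6.13% of them. The TATA box (TATAAA) occurred in 11.2% and the CCAAT box in 35.0%. The core of the hypoxia response element was searched as ACGTG, present in 18.0% of promoters, and separately as GCGTG, present in 34.7%. A match describes the letters and does not show that a factor was bound. The first stretch lay in a promoter peak that was called lower in normoxia, and its capitals are ACGTG read on the other strand. The next pair precede the start sites of Postn, the first in a called upstream peak with no match and the second with a TATA box 26 bases before the start site.
Col1a2, chr6:4505370-4505492, plus strand: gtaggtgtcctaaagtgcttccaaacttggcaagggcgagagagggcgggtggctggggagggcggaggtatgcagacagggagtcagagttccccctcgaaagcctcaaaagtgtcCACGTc
Postn, outer start, chr3:54359017-54359266, plus strand: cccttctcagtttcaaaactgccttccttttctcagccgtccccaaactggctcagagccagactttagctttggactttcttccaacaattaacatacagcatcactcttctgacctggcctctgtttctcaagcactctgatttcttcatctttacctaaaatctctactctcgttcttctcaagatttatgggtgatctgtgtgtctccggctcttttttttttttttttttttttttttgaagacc
Postn, inner start, chr3:54360857-54361106, plus strand: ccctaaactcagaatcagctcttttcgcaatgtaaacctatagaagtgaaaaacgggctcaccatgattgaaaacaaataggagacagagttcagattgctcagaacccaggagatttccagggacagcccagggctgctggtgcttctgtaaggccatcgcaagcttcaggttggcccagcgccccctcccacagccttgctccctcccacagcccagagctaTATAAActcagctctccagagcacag
Alpl, chr4:137796385-137796634, minus strand: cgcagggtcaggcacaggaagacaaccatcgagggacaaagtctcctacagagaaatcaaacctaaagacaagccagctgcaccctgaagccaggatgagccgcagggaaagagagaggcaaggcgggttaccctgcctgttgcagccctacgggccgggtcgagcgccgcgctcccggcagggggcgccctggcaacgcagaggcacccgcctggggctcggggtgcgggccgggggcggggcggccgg
Bglap, chr3:88384467-88384716, minus strand: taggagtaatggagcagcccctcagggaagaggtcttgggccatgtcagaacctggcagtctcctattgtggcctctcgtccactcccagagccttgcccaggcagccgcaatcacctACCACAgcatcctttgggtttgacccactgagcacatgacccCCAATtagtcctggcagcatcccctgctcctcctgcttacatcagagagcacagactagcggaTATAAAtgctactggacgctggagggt

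The Alpl promoter is shown as the GC-rich one of the set, with a GC content of 68.4%, 20 CpG and no match, against a median of 56.0% and 10.0 CpG over all promoters. The Bglap promoter carried the RUNX motif 132 bases, the CCAAT box 90 bases and the TATA box 27 bases before the start site. Its 4 CpG put it at the 27.5th percentile. These motifs were not particular to Bglap. The RUNX motif also lay 128 bases before a start site of Spp1 and 164 bases before 1 of Dmp1. Ibsp and Spp1 also held a TATA box and a CCAAT box.

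The deposited signal is a read number per 10000000 reads of the library. Peak width does not enter it, so the levels of the loci are compared per kb. Marker promoters, the bins of peak strength and the strongest peak of a locus are given by deposited signal, undivided by width. The library totals ran from 26680936 to 29965523 reads, and the median peak held 33 to 48 reads. The share of the library in nuclear peaks was 49.2% and 53.2% in hypoxia against 31.0% and 35.2% in normoxia. Mitochondrial peaks took 7.77% and 9.13% in hypoxia against 1.497% and 2.34% in normoxia. These shares moved with the groups, and their part in the results was not tested. A fold change is given as normoxia over hypoxia, in log2(value + 1) units after relative log expression (RLE) scaling. It was tested with limma over all peaks and called at a false discovery rate (FDR) under 0.01.

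Summed over its peaks and divided by the length of the span, the signal at the collagen loci and Sparc was far above that at the late mineralization genes. The mean over the 4 libraries was 22.0 per kb at Col1a1, 19.7 at Sparc and 16.4 at Col1a2. The median over 18163 coding genes with a peak was 3.58 per kb, and these 3 loci stood at the 98.6th, 97.9th and 96.2nd percentile. Alpl followed with 5.02 per kb and Postn with 4.19. Spp1 (3.21), Dmp1 (2.89), Bglap (1.23), Phex (0.701) and Ibsp (0.430) lay below the median. Neighbours in this order did not all hold their place in every library. Col1a1 was above Sparc in 3 of 4 libraries, Alpl above Postn in 3 and Postn above Spp1 in 3, while the other 6 steps of the order held in all 4. The collagen genes were covered almost end to end. Peaks held 100% of the length of Col1a1 and 95.6% of Col1a2, against a median of 12.7% over coding genes. Sparc had 80.5% of its length in peaks, whereas Postn had 3.65% and Phex 3.99%.

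The locus sums were lower in both normoxia libraries than in both hypoxia libraries at 9 of the 10 loci, which 91.0% of all coding loci also showed on the deposited scale, and higher at 0 (background 1.42%). After scaling, 3 loci were called lower, Col1a1, Col1a2 and Postn, and none higher (limma). Of all coding loci, 26.3% were called lower and 2.42% higher, so the count at these genes was close to the background. At an unadjusted p under 0.05 there were 4 of the 10, all lower, with a background of 42.0% lower and 6.58% higher, and edgeR called 2 lower and none higher (background 9.21% lower and 7.7% higher). On the deposited values limma called 8 lower, with a background of 78.8% lower and 0.226% higher. The median log2 fold change was -0.05 over the 10 loci and -0.16 over all coding loci.

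**Figure D1:**
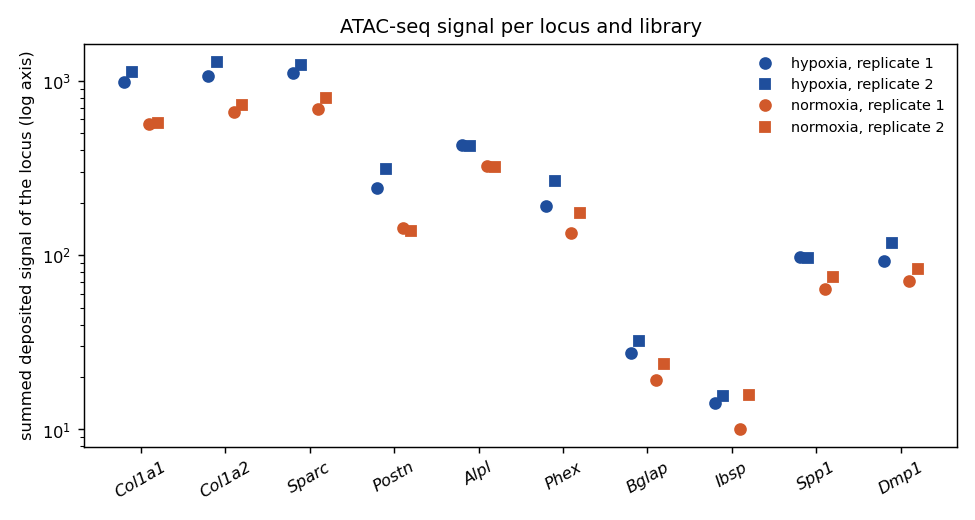
Summed deposited signal of each of the 10 loci on a log axis, with 1 point for each of the 4 libraries (circles replicate 1, squares replicate 2). The normoxia points lie below the hypoxia points at every locus but Ibsp, where they overlap.

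Of the 72 peaks, 6 were called lower in normoxia and 0 higher by limma, 8.33% against a background of 4.57% lower and 1.77% higher over all peaks. At an unadjusted p under 0.05 there were 27, 22 of them lower and 5 higher (background 16.8% and 12.5%), and edgeR called 8 lower and 0 higher (background 5.7% and 2.54%). Promoter peaks gave 2 of 13 called lower, with 16.7% lower and 0.442% higher among the promoter peaks of all coding genes. Among gene-body peaks 0 of 31 were called (background 2.32% lower and 1.86% higher), with 8 at an unadjusted p under 0.05, 5 lower and 3 higher, in the same limma fit (background 12.2% and 13.6%). The flanks gave 4 of 28 (background 3.29% lower and 1.34% higher). Member positions were set by the member gene alone, whereas background flank peaks lay in no promoter or body of any coding gene. The member flanks include Col1a1 peak 8 at Sgca and Bglap peaks 2 and 3 at Bglap2, so these 2 sets are not fully alike. On the deposited scale both normoxia values were below both hypoxia values in 53 of the 72 peaks, 73.6% against 59.5% of all peaks, and above them in 1 (background 6.94%). The median log2 fold change was -0.22 over the members and -0.0040 over all peaks. It was -0.22 at the promoters (-0.27 at all coding promoters), -0.17 in the gene bodies (0.05) and -0.26 in the flanks (0.02).

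**Figure D2:**
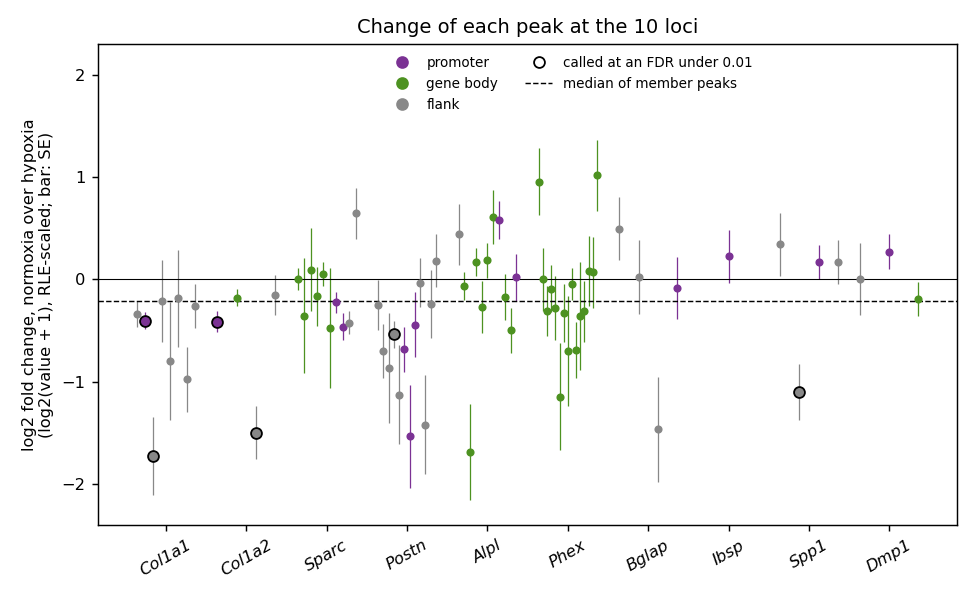
Log2 fold change (normoxia over hypoxia, bars SE) of each of the 72 peaks, ordered along each locus and coloured by position. The 6 ringed peaks were called lower; they lie at Col1a1, Col1a2, Postn and Spp1, and the dashed line marks the median of -0.22.

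The peak caller assigned 14 of the 72 peaks to hypoxia only and 58 to both conditions, 19.4% hypoxia only against 6.84% of all peaks. All 14 had a negative log2 fold change, which is what such an assignment selects since the caller used the same libraries. The medians of the members given above include these peaks, and the median of the 58 shared peaks was -0.12. In the flanks 8 of the 28 peaks were hypoxia only, 28.6% against 8.98% of all flank peaks. The flank sets differ as stated above, and Bglap peak 3 at Bglap2 was among the 8. Of the 6 called peaks, 2 were hypoxia only, both in the flanks. Over the whole table the strongest peaks were called lower most often. Of the 12 members in the strongest of 10 equal bins of all peaks, 3 were called, next to 28.4% of all peaks in that bin, with medians of -0.28 and -0.33.

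**Figure D3:**
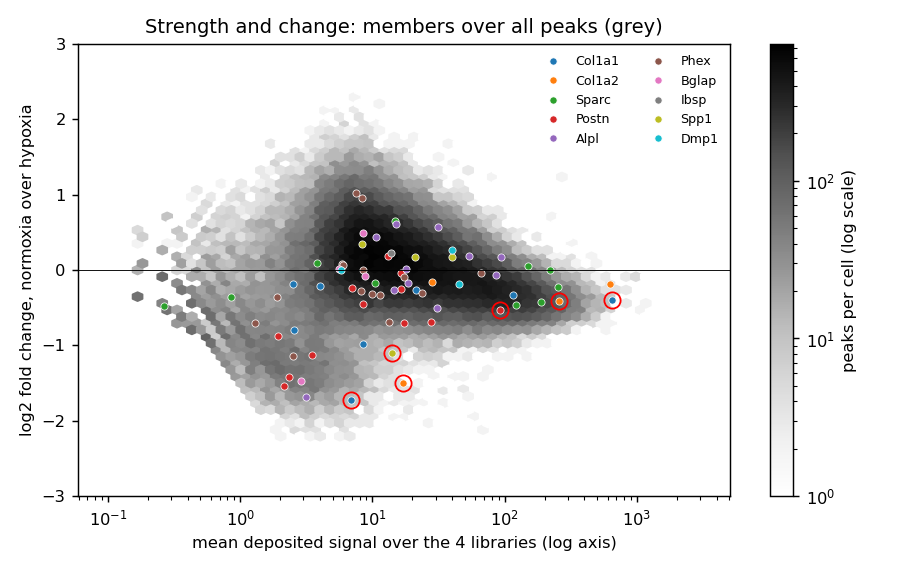
Log2 fold change against mean deposited signal (log axis) for all peaks (grey, darker for more peaks) and for the 72 members (coloured by gene); red rings mark the 6 called peaks. The strong called peaks of Col1a1, Col1a2 and Postn lie within the grey band, and the weaker ones of Col1a1, Col1a2 and Spp1 lie at its lower edge.

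Col1a1 encodes the alpha-1 chain of type I collagen and lies at chr11:94936224-94953042 on the plus strand. Its 8 peaks summed to 984.8 and 1123 in hypoxia against 565.6 and 571.0 in normoxia. The groups did not overlap, and the log2 fold change was -0.41 (SE 0.076, limma FDR 1.31e-06). The size of the locus change depended on the scaling, with -0.12 for equal totals (limma FDR 0.186), -0.20 for quantile normalization (limma FDR 0.0225) and -0.19 for cyclic loess (limma FDR 0.0278), none of them called. A single peak of 27200 bp spanned the promoter and the whole gene (peak 2, chr11:94932701-94959900), and 37 peaks of the table were at least as wide. Its signal was 778.9 and 906.4 in hypoxia against 457.3 and 454.2 in normoxia. Both normoxia values were below both hypoxia values, and the peak was called lower (log2 fold change -0.40, SE 0.084, limma FDR 0.00144). Under other scalings the wide peak had a log2 fold change of -0.11 (equal totals), -0.09 (quantile) and 0.13 (cyclic loess) and was not called.

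The next peak of Col1a1 (peak 3, chr11:94959901-94960300) abuts the downstream edge of the wide peak, 6859 bp past the gene, and was assigned to hypoxia only. It had 9.91 and 13.3 in hypoxia against 1.12 and 3.00 in normoxia, from 28, 39, 3 and 9 reads. The log2 fold change was -1.73 (SE 0.38, limma FDR 0.00254), and without normoxia replicate 1 it was -1.30 and not called (limma FDR 0.0228). Repeats masked 68.8% of its length, against a median of 13.8% over all peaks. Beyond it, 5 more peaks ran on to 10 kb and none was called. The outermost, peak 8, is shared with the neighbouring gene Sgca. Upstream of the gene a peak of 4600 bp (peak 1) read 150.0 and 146.9 in hypoxia against 82.8 and 85.4 in normoxia, with a log2 fold change of -0.34 that did not pass (limma FDR 0.0629).

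Col1a2 encodes the alpha-2 chain and lies at chr6:4504814-4541544 on the plus strand. Its 4 peaks summed to 1061 and 1277 in hypoxia against 659.6 and 729.5 in normoxia, and the locus was called lower (log2 fold change -0.27, SE 0.073, limma FDR 0.00135). The locus was not called with equal totals (0.024), quantile normalization (-0.074), cyclic loess (-0.051) or edgeR (-0.11), or without hypoxia replicate 2 (-0.20, limma FDR 0.141). The promoter peak (peak 1, 10100 bp) had 308.2 and 361.7 in hypoxia against 165.7 and 194.2 in normoxia. It was called lower (log2 fold change -0.42, SE 0.10, limma FDR 0.00607). Under the other scalings it was not called, at -0.13 with equal totals, -0.048 with quantile normalization and -0.014 with cyclic loess (limma FDR 0.319, 0.797 and 0.948). The median over all peaks was 0.26 with equal totals, -0.0022 with quantile normalization and -0.0047 with cyclic loess. This is the peak that holds the Col1a2 sequence printed above. The gene-body peak was the widest of the set (peak 2, 32500 bp) and read 696.8 and 846.2 in hypoxia against 467.4 and 504.9 in normoxia. The groups did not overlap as deposited, yet after scaling the log2 fold change was -0.18 (SE 0.084, limma FDR 0.143), and with cyclic loess it turned to 0.35 and was called higher.

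At the downstream edge of that domain, 4657 bp past the gene, the hypoxia-only peak 3 (1300 bp) had 23.4 and 32.3 in hypoxia against 5.62 and 7.34 in normoxia. This was the lowest FDR of the 72 peaks (log2 fold change -1.499, SE 0.26, limma FDR 0.000217). The peak directly beyond it read 32.2 and 36.4 in hypoxia against 21.0 and 23.0 in normoxia and did not pass (limma FDR 0.639). Both collagen edge peaks entered the table through hypoxia alone. The median log2 fold change of all 8754 hypoxia-only peaks was -1.05, so a larger fall than at the adjoining shared peak is what the assignment selects. The middle 300 bases of the Col1a2 edge peak are shown for its FDR. Capitals mark TATAAA and the palindrome CACGTG, which holds ACGTG on both strands. Of the 4705 peaks of the same width, 49.1% held ACGTG and 55.3% held the TATA box.
Col1a2 peak 3, centre, chr6:4546701-4547000, plus strand: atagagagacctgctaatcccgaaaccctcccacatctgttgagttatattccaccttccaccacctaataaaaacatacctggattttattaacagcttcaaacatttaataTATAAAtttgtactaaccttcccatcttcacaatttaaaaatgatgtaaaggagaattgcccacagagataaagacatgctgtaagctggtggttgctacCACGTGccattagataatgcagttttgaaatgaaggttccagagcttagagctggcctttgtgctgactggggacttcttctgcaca

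**Figure D4:**
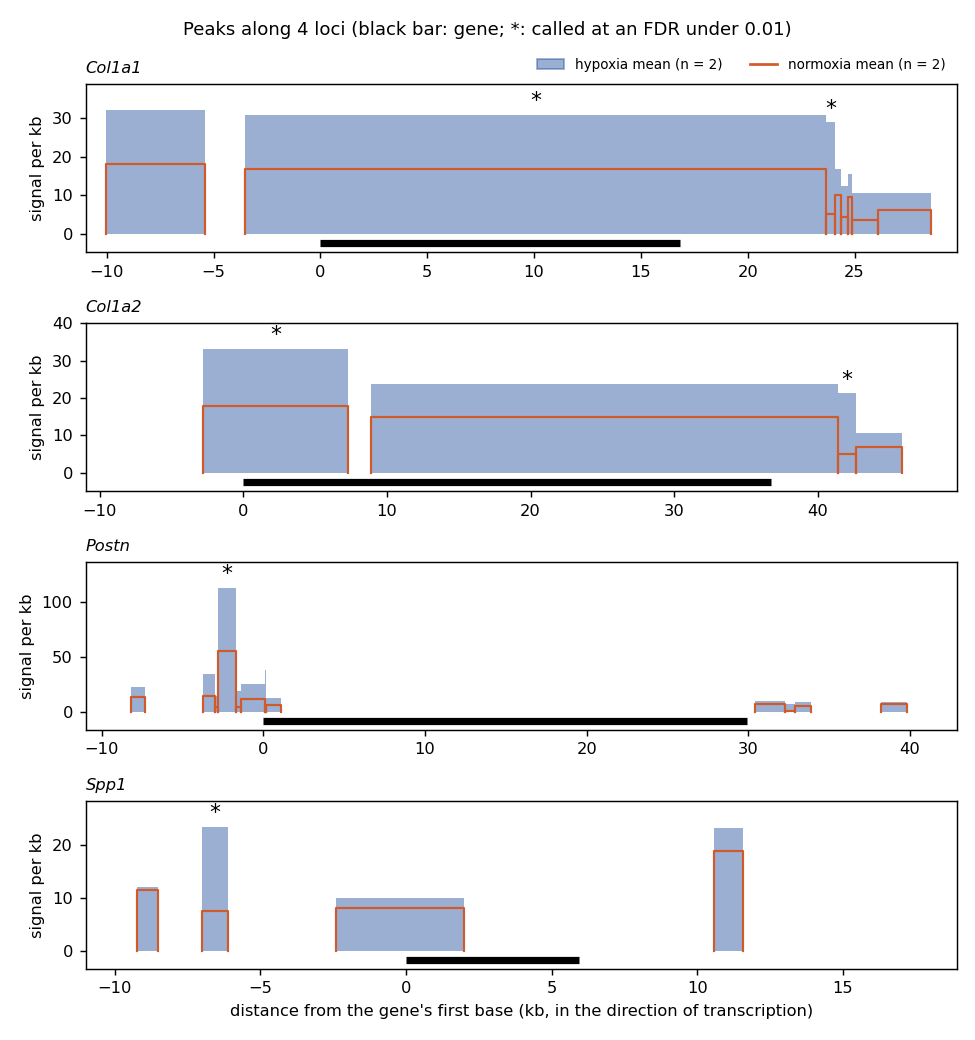
Deposited signal per kb of each peak along Col1a1, Col1a2, Postn and Spp1 against distance from the gene's first base, as filled blocks for the hypoxia mean and outlines for the normoxia mean (n = 2 each). Black bars are the genes and asterisks the 6 called peaks, of which the Col1a1 and Col1a2 edge peaks sit where a wide domain ends.

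Sparc, a collagen-binding matricellular protein, lies at chr11:55394500-55423183 on the minus strand and had 10 peaks. They summed to 1114 and 1230 in hypoxia against 687.8 and 799.9 in normoxia. The groups did not overlap, but the log2 fold change of -0.18 was close to the median of all loci and was not called (SE 0.072, limma FDR 0.0354). The main promoter peak (peak 7) had 300.8 and 322.0 in hypoxia against 187.4 and 194.6 in normoxia (log2 fold change -0.22, limma FDR 0.133). A second promoter peak upstream (peak 8) had 144.7 and 173.4 in hypoxia against 70.1 and 96.4 in normoxia, with a log2 fold change of -0.46 and an FDR of 0.0148 in limma. Peak 9, which lay 4418 bp upstream of the gene, had 225.1 and 261.1 in hypoxia against 115.4 and 144.8 in normoxia (log2 fold change -0.43, limma FDR 0.0101). Peaks 8 and 9 were both called by edgeR. The 2 large gene-body peaks had log2 fold changes of 0.0037 and 0.05. The log2 fold changes within Sparc ran from -0.48 at peak 6, which had signal in 1 library alone, to 0.65 at an upstream peak near the 10 kb border (peak 10, limma FDR 0.0750).

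Postn encodes periostin and lies at chr3:54361109-54391037 on the plus strand. The locus read 243.8 and 312.8 in hypoxia against 142.8 and 137.5 in normoxia, the largest log2 fold change of the 10 loci (-0.50, SE 0.10, limma FDR 1.59e-05). It was -0.21 with equal totals (limma FDR 0.0981), -0.31 with quantile normalization (limma FDR 0.0120) and -0.38 without hypoxia replicate 2 (limma FDR 0.0300), and not called in these. Its strongest peak was not at the annotated start but 1709 bp upstream of it (peak 4, chr3:54358301-54359400), where RefSeq places an outer start site. That peak had 115.4 and 134.0 in hypoxia against 61.1 and 61.4 in normoxia and was called lower (log2 fold change -0.54, SE 0.13, limma FDR 0.00607). With equal totals, quantile normalization and cyclic loess the peak had -0.25, -0.30 and -0.30 and was not called, nor was it without normoxia replicate 2 (-0.47, limma FDR 0.0155). The sequence before this outer start, printed above, lies within it. The inner start site lay in a weaker peak (peak 6) with 32.6 and 44.2 in hypoxia against 20.6 and 13.4 in normoxia (log2 fold change -0.68, limma FDR 0.0329). The small promoter peak 7 had 4.25 and 3.40 in hypoxia against 0 and 1.001 in normoxia (log2 fold change -1.53, limma FDR 0.0363). Promoter peak 8 had 9.55 and 12.9 in hypoxia against 6.75 and 4.67 in normoxia (log2 fold change -0.45, limma FDR 0.369). Both normoxia values lay below both hypoxia values in 91.7% of the 12 Postn peaks, and in 59.5% of all peaks, as deposited. Downstream of the gene the 4 peaks did not pass.

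Alpl, the alkaline phosphatase of bone, lies at chr4:137741733-137796384 on the minus strand. Its 11 peaks summed to 428.2 and 425.3 in hypoxia against 325.3 and 319.7 in normoxia. The sums did not overlap as deposited, while after RLE scaling the log2 fold change was 0.07 (SE 0.091, limma FDR 0.531). The direction depended on the scaling. The locus was called lower as deposited (-0.40, limma FDR 0.00570) and higher with equal totals (0.36), quantile normalization (0.31) and cyclic loess (0.31). As deposited, 78.8% of all coding loci were called lower. The share of all loci called higher was 17.85% with equal totals, 6.5% with quantile normalization and 7.2% with cyclic loess. The promoter peak of the outer start site (peak 11), which holds the GC-rich sequence printed above, had 19.1 and 22.1 in hypoxia against 14.2 and 15.7 in normoxia (log2 fold change 0.02, limma FDR 0.971).

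Within Alpl, peak 8 lay 71 bp from the start of a further coding transcript. It read 29.7 and 30.3 in hypoxia against 35.2 and 30.0 in normoxia, so the groups overlapped as deposited (log2 fold change 0.58, SE 0.19, limma FDR 0.0346). The strongest Alpl peak, in the gene body (peak 4), had 109.0 and 97.9 in hypoxia against 79.5 and 87.8 in normoxia (log2 fold change 0.17, limma FDR 0.419). A hypoxia-only peak beside it (peak 3) had 6.37 and 4.76 in hypoxia against 0.375 and 1.001 in normoxia (log2 fold change -1.69, limma FDR 0.0139). The log2 fold changes within Alpl thus ran from -1.69 to 0.61, and none was called.

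Phex lies at chrX:157162075-157415312 on the minus strand and had 15 peaks, all inside the gene. No peak overlapped the kb on either side of its start site, and the nearest began 1286 bp away, whereas 69.4% of coding genes had a promoter peak. The locus summed to 191.1 and 267.6 in hypoxia against 133.4 and 174.2 in normoxia (log2 fold change -0.09, SE 0.10, limma FDR 0.513). Its strongest peak (peak 9) had 63.7 and 92.1 in hypoxia against 45.4 and 62.7 in normoxia (log2 fold change -0.04, limma FDR 0.890). The largest positive change of the 72 peaks lay in the peak nearest the Phex start (peak 15), with 3.54 and 8.16 in hypoxia against 6.75 and 11.4 in normoxia. Its log2 fold change was 1.02 (limma FDR 0.0440), and the groups overlapped as deposited. Phex peak 1 was the 1 member with both normoxia values above both hypoxia values, 9.75 and 9.68 over 4.25 and 9.52 (log2 fold change 0.95, limma FDR 0.0447).

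Bglap encodes osteocalcin and lies at chr3:88383501-88384464 on the minus strand, next to its close copies Bglap2 and Bglap3. Reads of such copies can be assigned to the wrong one, and the locus of Bglap held the same 4 peaks as that of Bglap2, so its values are uncertain. They summed to 27.6 and 32.3 in hypoxia against 19.1 and 23.7 in normoxia (log2 fold change -0.01, SE 0.21, limma FDR 0.976). The promoter peak, which holds the sequence printed above, had 10.6 and 10.2 in hypoxia against 5.62 and 8.68 in normoxia. The groups did not overlap as deposited, and the log2 fold change after scaling was -0.08 (SE 0.31, limma FDR 0.888). A difference of that size is within the error at this depth.

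Ibsp encodes bone sialoprotein and lies at chr5:104299171-104311469 on the plus strand. It had a single peak, at its promoter, with 14.2 and 15.6 in hypoxia against 10.1 and 15.7 in normoxia. The groups overlapped (log2 fold change 0.22, SE 0.26, limma FDR 0.605 in the peak fit). Dmp1, a phosphoprotein of osteocytes on the same chromosome (chr5:104202613-104214102, plus strand), summed to 93.1 and 117.3 in hypoxia against 70.8 and 82.8 in normoxia (log2 fold change 0.03, SE 0.13, limma FDR 0.872). Its promoter peak read 38.9 and 46.2 in hypoxia against 35.2 and 38.7 in normoxia (log2 fold change 0.27, limma FDR 0.292). The gene-body peak of Dmp1 had 48.5 and 63.2 in hypoxia against 30.4 and 39.7 in normoxia (log2 fold change -0.19, limma FDR 0.484).

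Spp1 encodes osteopontin and lies at chr5:104435118-104441050 on the plus strand. Its 4 peaks summed to 97.3 and 96.9 in hypoxia against 63.7 and 75.4 in normoxia, and the log2 fold change was -0.01 (SE 0.14, limma FDR 0.970). The promoter peak (peak 3) had 43.9 and 44.5 in hypoxia against 33.7 and 38.0 in normoxia (log2 fold change 0.17, limma FDR 0.536). A single peak 6118 bp upstream (peak 2, chr5:104428101-104429000) was called lower. It had 23.0 and 19.4 in hypoxia against 5.25 and 8.34 in normoxia (log2 fold change -1.10, SE 0.27, limma FDR 0.00646). It was not called with equal totals (-0.83, limma FDR 0.0321) or without normoxia replicate 1 (-0.86, limma FDR 0.0564). No other peak of the mineral-binding proteins or of Alpl and Phex passed, and the other 5 of the 6 calls lay at the collagen genes and Postn. Of these, the wide Col1a1 peak, the Col1a2 promoter peak and Postn peak 4 were in the strongest of the 10 bins. In that bin 28.4% of all peaks were called lower. The Col1a1 and Col1a2 edge peaks were hypoxia only, a class in which 8.24% of all peaks were called lower. The middle of this Spp1 peak is printed as the 1 called region at a late gene, and none of the searched motifs lay in these 300 bases. The whole peak held the RUNX and the homeodomain motif once each. Of the 8067 peaks of its width, 58.4% held the RUNX motif at least 1 time and 22.2% the homeodomain motif.
Spp1 peak 2, centre, chr5:104428401-104428700, plus strand: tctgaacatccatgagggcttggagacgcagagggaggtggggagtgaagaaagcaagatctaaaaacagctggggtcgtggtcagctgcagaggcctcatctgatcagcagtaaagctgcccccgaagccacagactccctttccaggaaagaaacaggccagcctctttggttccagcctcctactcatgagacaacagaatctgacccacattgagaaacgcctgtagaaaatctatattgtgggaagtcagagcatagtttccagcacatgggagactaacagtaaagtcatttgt

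Ratios within a library do not depend on how libraries are scaled. These were chosen after the values had been seen. The Col1a1 edge peak held 1.01% and 1.18% of the signal of its locus in hypoxia against 0.199% and 0.526% in normoxia. At Col1a2 the edge peak held 2.20% and 2.53% in hypoxia against 0.852% and 1.01% in normoxia, and the promoter peak 29.1% and 28.3% against 25.1% and 26.6%. The upstream peak of Spp1 held 21.8% ± 2.57 of its locus in hypoxia and 9.65% ± 1.999 in normoxia (SD, n = 2). The groups did not overlap in these 4 ratios, but all 4 peaks had been called lower in the same libraries and both edge peaks were hypoxia only, so the ratios describe the calls and do not support them. The Postn upstream peak held 47.3% and 42.8% in hypoxia against 42.8% and 44.7% in normoxia, and the wide Col1a1 peak 79.1% and 80.7% against 80.9% and 79.5%, so both overlapped. The summed signal of Col1a1, Col1a2, Sparc and Postn over that of the other 6 loci was 4.00 and 4.13 in hypoxia against 3.30 and 3.24 in normoxia. The first 4 loci hold all 3 loci called lower in the same libraries, so this ratio too describes the calls and does not support them. The exact two-sided permutation p of the ratio was 0.333, the smallest that 2 libraries a group can give.

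**Figure D5:**
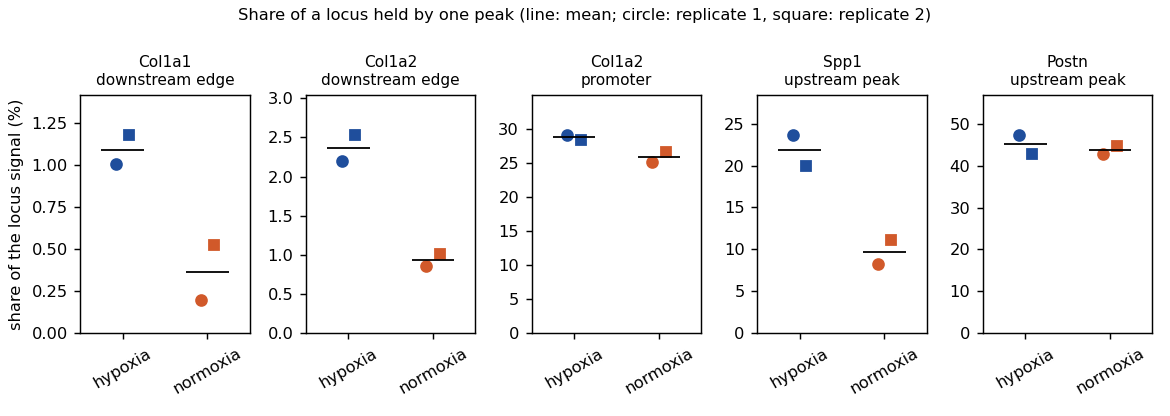
Share of the deposited signal of a locus held by 1 peak (%), for the edge peaks of Col1a1 and Col1a2, the Col1a2 promoter and the upstream peaks of Spp1 and Postn, all called lower in these libraries, with each library as a point and the group mean as a line. The normoxia points lie below the hypoxia points in the first 4 panels, and the groups overlap at Postn.

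Of 32 other genes of bone matrix and mineralization, 9 loci were called lower and 1 higher, 28.1% lower against the background of 26.3% lower and 2.42% higher, with a median log2 fold change of -0.16. The Bglap2 locus holds the same 4 peaks as the member Bglap, and the Bglap3 locus shares peaks with both. These peaks are counted in both lists. The lowest p-values were those of Fn1 (fibronectin), Tnn (tenascin N), Fam20c (a kinase of secreted phosphoproteins) and Tgfbi, a relative of periostin. Fn1 summed to 2419 and 2879 in hypoxia against 1151 and 1308 in normoxia (log2 fold change -0.63, SE 0.062, limma FDR 4.04e-21). The log2 fold change was -0.58 at Tnn, -0.51 at Fam20c and -0.43 at Tgfbi. Fmod, which encodes the small proteoglycan fibromodulin, was the locus called higher, with 209.1 and 200.2 in hypoxia against 193.0 and 186.2 in normoxia. It was thus lower as deposited and higher after scaling (log2 fold change 0.37, SE 0.10, limma FDR 0.00178). By role, and beside the same 26.3%, limma called lower 5 of 10 other matrix proteins, 2 of 7 enzymes and transporters of mineralization, 1 of 6 small leucine-rich proteoglycans (with 1 higher), 1 of 2 relatives of members, 0 of 3 inhibitors and Gla proteins and 0 of 4 phosphoproteins and osteocyte factors. Over all 32 loci, 15 had an unadjusted p under 0.05, 2 of them higher (background 42.0% lower and 6.58% higher). Of their 268 peaks, 24 were called lower and 0 higher in limma, 8.96% against 4.57% of all peaks lower and 1.77% higher. At an unadjusted p under 0.05 there were 89, 14 of them higher (background 16.8% lower and 12.5% higher).

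Promoter signal of marker genes was read in the same table. Of 7 genes of the sorting gate and stroma, 6 had a promoter peak, with a mean of 270.6 at Pdgfra (CD140a) and 82.7 at Ly6a (Sca-1), while Lepr had none. They summed to 950.7 and 950.6 in hypoxia against 537.5 and 614.7 in normoxia. Of 7 blood genes 3 had one, and Ptprc (CD45), Itgam, Cd79a and Cd3e had none. Their summed signal was 154.6 and 161.5 in hypoxia against 107.6 and 121.5 in normoxia, of which Csf1r held the most. All 3 chondrocyte genes had a promoter peak and summed to 316.8 and 310.7 in hypoxia against 143.2 and 176.8 in normoxia. Adipocyte genes (3 of 3) summed to 109.0 and 138.4 in hypoxia against 78.3 and 98.4 in normoxia. Endothelial genes (3 of 4) had 92.7 and 96.6 in hypoxia against 58.5 and 75.4 in normoxia. Osteoclast genes (2 of 4) had 49.2 and 34.7 in hypoxia against 31.1 and 36.04 in normoxia, with none at Ocstamp and Calcr. The sums of these lists other than the osteoclast one did not overlap between the groups. As deposited, both normoxia values were also below both hypoxia values in 86.1% of all coding promoter peaks. The part of these lists in the results was not tested.

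The number of calls changed with the libraries and with the scaling. Without hypoxia replicate 1 or without hypoxia replicate 2, limma called 0 of the 72 peaks and 0 of all 128055, with 17 and 14 members at an unadjusted p under 0.05 (background 18.8% and 19.0%). The log2 fold changes stayed near those of all 4 libraries, at -1.67 and -1.33 for the Col1a2 edge peak, -1.86 and -1.57 for the Col1a1 edge peak and -0.46 and -0.36 for the wide Col1a1 peak. The same settings called 3 loci lower (background 10.8% lower and 1.06% higher) and 1 (background 13.1% and 0.98%). As deposited, 21 peaks were called lower and 0 higher (background 24.0% and 0.391%), with equal totals 2 lower and 1 higher (background 0.842% and 6.87%), with quantile normalization 3 lower and 0 higher (background 0.72% and 0.905%), and with cyclic loess 3 lower and 2 higher (background 1.31% and 1.42%). The Col1a1 and Col1a2 edge peaks were among those called lower in each, a direction that their hypoxia-only assignment had chosen. The members reach to a border of 10 kb. Just inside it, the upstream Sparc peak at 9618 bp had 13.8 and 13.3 in hypoxia against 13.1 and 18.7 in normoxia. Just outside, a peak 10214 bp from Col1a2 had 16.3 and 22.8 in hypoxia against 13.9 and 11.7 in normoxia, and a peak 10951 bp past Spp1 had 109.0 and 102.7 in hypoxia against 55.9 and 55.4 in normoxia.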

How the data were processed

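One table of 128055 peaks by 4 ATAC-seq libraries was used, 2 from hypoxia and 2 from normoxia, grouped by the oxygen level in the labels. Per the labels and the methods, the authors aligned reads to mm10 with Bowtie2, removed duplicates with Picard and called peaks jointly with chromstaR (differential mode). The authors name the deposited values RPKM, but the signal of a peak does not take its width into account. In every library 100% of them lay within 0.001 reads of a whole multiple of what 1 read is worth, so the reads were recovered. Whether they count fragments or read positions is not given in the sources used here, and a read may be counted in neighbouring bins, so no counting interval is printed.

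Values were divided by RLE size factors (1.13 and 1.23 in hypoxia, 0.810 and 0.886 in normoxia) and tested as log2(value + 1) with limma 3.58.1 in R 4.3.3 (eBayes with trend and robust), in a two-sided test, p-values being adjusted over all peaks by Benjamini and Hochberg's method and called at an FDR under 0.01. Adding 1 understates the change of weak peaks. No filter on low values was applied. For loci, the deposited signal of all peaks within 10 kb of a gene was summed for 18163 coding genes, and tested with the same size factors over all of them; neighbouring genes share peaks. edgeR 4.0.16 on the recovered reads, other scalings, pseudocounts, a filter, other variance models, a replicate block, leaving out each library and other flank widths were alternatives. Peaks named were every promoter peak, the strongest peak of each locus and every called peak, and others that the text singles out were chosen after their values were seen. From the list of other matrix genes, the loci with the lowest p in each direction were named, at most 4. Members and lists were chosen with earlier results of these data known. Coordinates are mm10 and 1-based. Sequences came from RefSeq tables and the genome of GRCm38.p6, the same build.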

Additional observations from a re-analysis of the deposited data

How the results depend on the processing

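Against 6 peaks called lower and 0 higher, limma called 21 lower as deposited, 2 lower and 1 higher with equal totals over all peaks, 3 lower with quantile normalization, and 3 lower and 2 higher with cyclic loess. The median of all peaks itself moved to -0.44 as deposited and 0.26 with equal totals. A pseudocount of 0.1 gave 3 lower (background 3.35% lower and 1.2% higher). An FDR under 0.05 gave 14 lower and 3 higher (background 9.68% and 5.38%). The eBayes fit that was not robust gave 3 lower (background 3.45% and 1.196%). Without trend, robust or not, limma called 0 (also 0 of all peaks), with 14 members at an unadjusted p under 0.05 (22.4% and 22.9% of all peaks). Without flanks 2 of 44 were called lower, both of them promoter peaks. The backgrounds were 16.7% lower and 0.442% higher for promoter peaks, and 2.32% and 1.86% for gene-body peaks. With 1 library left out, log2 fold changes ran from -0.47 to -0.33 and -2.18 to -1.30 at Col1a1 peaks 2 and 3. The ranges were -0.48 to -0.36 and -1.67 to -1.33 at Col1a2 peaks 1 and 3. At Postn peak 4 the range was -0.59 to -0.47, and at Spp1 peak 2 it was -1.34 to -0.86. The median log2 fold change of -0.22 became -0.63 as deposited, 0.022 with equal totals, -0.14 with quantile normalization, -0.15 with a pseudocount of 5, -0.15 over peaks whose mean reached 5, and -0.24 to -0.12 with 1 library left out. Against 3 loci lower and 0 higher, there were 8 lower as deposited. Equal totals and quantile normalization each gave 0 lower and 1 higher, and cyclic loess 1 lower and 1 higher. The locus called higher was Alpl each time. With 1 library left out, the log2 fold change ran from -0.46 to -0.35 at the Col1a1 locus. It ran from -0.35 to -0.20 at the Col1a2 locus and from -0.63 to -0.38 at the Postn locus. Of all coding loci, 78.8% were called lower and 0.226% higher as deposited. Equal totals called 2.56% of all loci lower and 17.85% higher. The shares were 7.3% lower and 6.5% higher with quantile normalization, and 7.7% and 7.2% with cyclic loess. The cause was not tested. Filters and variance models were run on the peaks alone, and flank widths on the list alone.

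Signs turned as follows. As deposited, the log2 fold change became -0.30 at Alpl peak 4, -0.43 at Alpl peak 11, -0.22 at Ibsp peak 1 and at its locus, -0.30 at Spp1 peak 3, -0.20 at Dmp1 peak 2, -0.40 at the Alpl locus and -0.44 at the Dmp1 locus. With equal totals it became 0.11 at Col1a2 peak 2, 0.065 at Sparc peak 7, 0.24 at Phex peak 9, 0.18 at Bglap peak 4 and 0.094 at Dmp1 peak 3, and at the loci 0.024 (Col1a2), 0.11 (Sparc), 0.20 (Phex), 0.27 (Bglap) and 0.28 (Spp1). Quantile normalization gave 0.18 at Col1a2 peak 2, 0.14 at Sparc peak 7, -0.11 at Alpl peak 11 and 0.12 at Phex peak 9, and at the loci 0.0051 (Sparc), 0.10 (Phex) and 0.086 (Spp1). Cyclic loess gave 0.13 at Col1a1 peak 2, 0.35 at Col1a2 peak 2, 0.18 at Sparc peak 7, -0.10 at Alpl peak 11 and 0.13 at Phex peak 9, and at the loci 0.036 (Sparc), 0.10 (Phex) and 0.079 (Spp1). On recovered reads the Phex, Bglap and Spp1 loci became 0.067, 0.16 and 0.16 (edgeR, RLE), 0.076, 0.17 and 0.17 (edgeR, TMM) and 0.080, 0.16 and 0.16 (voom). With 1 library left out, values ran from -0.035 to 0.057 at Alpl peak 11, -0.26 to 0.16 at Phex peak 9, -0.30 to 0.14 at Bglap peak 4 and -0.0076 to 0.47 at Ibsp peak 1 and its locus, and at the loci from -0.073 to 0.055 (Spp1), -0.087 to 0.13 (Dmp1), -0.28 to 0.089 (Phex) and -0.092 to 0.084 (Bglap). None of these results had been called apart from Col1a1 peak 2 and the Col1a2 locus.

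With the replicate number as a block limma called 10 of the 72 peaks lower and 0 higher (background 6.61% lower and 3.055% higher). The 3 loci stayed called (background 26.3% lower and 2.54% higher). Libraries with the same number did not deviate together (r = 0.011 over all peaks and 0.029 over peaks with a mean of at least 5). With 2 libraries a group, this correlation cannot exclude a shared isolation. The labels do not tie a number to an isolation, so the pairing was not used in the main fit.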
